A study of Mus musculus with 10 samples.

Results

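The regions described here are SOX9 binding peaks of mouse hair follicle stem cells (HFSCs) that lie inside gene loci and were not found in interfollicular epidermal (IFE) cells. They were chosen by measured peak positions: a peak of HFSC list 1 had to overlap a peak of HFSC list 2 by at least 1 bp, overlap no peak of the IFE list, overlap a gene locus, and lie more than 1 kb from every locus start and end. Of the 8181 peaks of HFSC list 1, 2047 overlapped list 2, 799 of these overlapped no IFE peak, 443 of those overlapped a locus, and 319 also lay more than 1 kb from every edge. Those 319 peaks lay under 318 peaks of list 2 and in 279 loci. List 2 sets this number: the same rule without list 2 takes 2487 peaks in 1492 loci, and list 2 taken alone gives 399 peaks in 351 loci. Being in both HFSC lists, absent from the IFE list and inside a locus are therefore the terms of the choice and not findings.

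SOX9 binding was measured by chromatin immunoprecipitation and sequencing in 3 libraries, 2 of HFSCs and 1 of IFE cells, each deposited as 1 list of peak positions. Input DNA of the same cell types was sequenced in 3 further libraries, which were not used here. These cells came from untreated CD-1 females at days 52 to 60 of age, sorted from back skin as integrin α6hi cells, with CD34+ marking the HFSCs and CD34- the IFE cells, and the labels put ScaI- on both. Messenger RNA was measured in 4 libraries of HFSCs that were also YFP+, from mice of a strain given as C57BL6, mixed, all treated with RU486 to activate CrePGR. Of these, 2 are labelled Sox9 cKO and 2 are controls, which the titles call Het and the genotype field calls wild type. Replicate 1 of each genotype is male, treated on days 48 to 61 and collected at day 75, and replicate 2 is female, treated on days 53 to 66 and collected at day 80. The labels do not name the promoter that drives CrePGR, the alleles of Sox9, or the number of mice in a library, so the p-values reflect the spread among these 4 libraries and nothing wider.

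SOX9 is a transcription factor whose HMG box binds and bends DNA at short sites built around a core such as ACAATG or ACAAAG. In skin it is known as a factor of the hair follicle bulge, where the resting stem cells of the hair are kept. Many regulatory elements of mammals lie in introns, at a distance from the start of the gene they act on, and a peak in a gene body may act on that gene, on a neighbour or on none.

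RNA of keratinocytes dominated all 4 libraries: 10 keratinocyte marker genes summed to between 21752 and 25606 FPKM (fragments scaled by transcript length and library total), 6 endothelial markers to between 0.137 and 0.471, 7 immune markers to between 40.6 and 102, and 7 fibroblast markers to between 24.6 and 43.0. Markers of IFE differentiation summed to 4146 FPKM labelled cKO and 4391 control in replicate 1, and to 8160 and 12790 in replicate 2. Sox9 itself had 71.3 FPKM labelled cKO and 82.7 control in replicate 1, and 80.5 and 46.5 in replicate 2. The level of Sox9 over the whole gene was thus not lower in both libraries labelled cKO, a value for the deleted part alone was not used here, and directions below follow the labels. In bulk RNA, fewer cells of a type and less RNA per cell cannot be told apart.

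To show what a start site of a gene with these peaks looks like, the 250 bases before the outermost listed start are printed for 3 genes: Ablim1, which held as many chosen peaks as any locus, and Slit3 and Wfdc3, the genes with the smallest adjusted p in each direction among genes with 1 name to their locus. They are RefSeq sequences of build GRCm38.p6, a different build from the mm9 peak positions, so their coordinates cannot be set beside those of the peaks. Capitals mark a SOX core, ACAATG or ACAAAG, searched on both strands, and the rest is in lower case.
Ablim1, GRCm38.p6 chr19:57314920-57315169, minus strand: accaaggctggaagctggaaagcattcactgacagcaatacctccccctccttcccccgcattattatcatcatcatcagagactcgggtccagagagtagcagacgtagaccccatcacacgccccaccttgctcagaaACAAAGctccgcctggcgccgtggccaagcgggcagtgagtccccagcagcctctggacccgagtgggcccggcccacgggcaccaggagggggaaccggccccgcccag
Slit3, GRCm38.p6 chr11:35121206-35121455, plus strand: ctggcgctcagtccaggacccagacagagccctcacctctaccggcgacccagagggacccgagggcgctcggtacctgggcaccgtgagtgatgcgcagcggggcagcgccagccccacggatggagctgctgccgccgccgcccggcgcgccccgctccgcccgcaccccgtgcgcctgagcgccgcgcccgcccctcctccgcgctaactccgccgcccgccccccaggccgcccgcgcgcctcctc
Wfdc3, GRCm38.p6 chr2:164743268-164743517, minus strand: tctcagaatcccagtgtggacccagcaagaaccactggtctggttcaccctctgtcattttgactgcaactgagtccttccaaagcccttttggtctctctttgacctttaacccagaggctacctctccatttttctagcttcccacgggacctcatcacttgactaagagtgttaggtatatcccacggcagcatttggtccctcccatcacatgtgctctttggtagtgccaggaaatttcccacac
The Ablim1 window held 1 core, which began 110 bases before the start, and the windows of Slit3 and Wfdc3 held 0. Guanine and cytosine made up 63.2% of the Ablim1 window, 78.8% of the Slit3 window and 49.6% of the Wfdc3 window. Either core was found in 22.6% of 261 such windows of 191 genes with a chosen peak, and in 25.2% of all 32851 windows in the table. No match says only that these letters are not in this window and nothing of the factor, and the sequence under the peaks themselves was not used here.

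The chosen peaks had a median width of 775 bp, with the middle of them (quartiles) between 628 and 937 bp and the extremes at 283 and 1947 bp. Peaks inside loci that were in all 3 lists had nearly the same median width, 758 bp (n = 409), HFSC-only peaks between loci 773.5 bp (n = 334), and list 1 peaks inside loci that were in no other list 586 bp (n = 2168). The lists carry no height or score, so width is the 1 measure of a peak they allow, and strength cannot be compared. List 2 covered a median of 78.7% of a chosen peak, and the centres of the peaks in lists 1 and 2 lay a median of 54.5 bp apart. The widest was in Ablim3, which encodes an actin-binding LIM protein (mm9 chr18:62017439-62019385, 1947 bp), followed by one in Slc7a6, an amino acid transporter subunit (mm9 chr8:108709358-108711060, 1703 bp), and one in Slc12a8, a member of the cation-chloride cotransporter family (mm9 chr16:33562778-33564417, 1640 bp).

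At the margin of the rule, the smallest overlap of a chosen peak with list 2 was 13 bp, in the integrin gene Itgb6 (mm9 chr2:60477621-60478118), while the nearest peak left out for want of overlap missed list 2 by 31 bp. The smallest gap to an IFE peak was 120 bp, in Tnks1bp1 (mm9 chr2:84900257-84900811), and the smallest overlap with the IFE list among peaks left out for it was 193 bp. The peak nearest to a locus edge lay 1005 bp from it, and the nearest one left out 989 bp. List 2 covered at least 50% of 292 of the peaks and less of 27. An IFE peak lay within 1 kb of 7 chosen peaks and within 10 kb of 50, and 143 were more than 100 kb from any, with a median distance of 80120 bp. The IFE list comes from 1 library, so a peak absent from it was not called in that library.

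HFSC-only peaks were set beside those found in all 3 lists by position (the plot of peak positions). Of the 799 peaks in both HFSC lists and no IFE peak, 319 (39.9%, 95% exact binomial interval 36.5 to 43.4) lay inside a locus, 334 (41.8%, 38.4 to 45.3) between loci and 146 (18.3%, 15.7 to 21.1) within 1 kb of an edge. Of the 1248 in all 3 lists, 409 (32.8%, 30.2 to 35.5) lay inside, 269 (21.6%, 19.3 to 23.9) between and 570 (45.7%, 42.9 to 48.5) at an edge. Read the other way, 43.8% of the peaks inside loci that were in both HFSC lists were absent from the IFE list, against 55.4% of those between loci and 20.4% of those at edges. The intervals treat peaks as independent and cover counting error only. The rule sets these classes, whereas the shares in them are measured, and their differences were not tested.

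**Figure D1:**
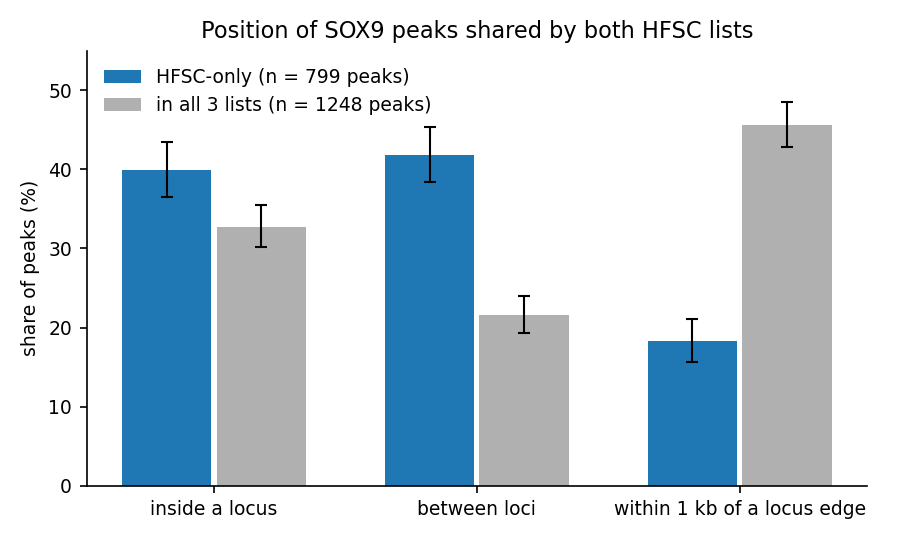
Share of SOX9 peaks (percent, vertical axis) inside a locus, between loci and within 1 kb of a locus edge, for the 799 HFSC-only peaks (blue) and the 1248 peaks in all 3 lists (grey), with exact 95% binomial intervals as bars. The HFSC-only peaks are lower at edges (18.3% against 45.7%) and higher between loci (41.8% against 21.6%), with a smaller gap inside loci (39.9% against 32.8%).

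Within a gene, the chosen peaks were spread along its length. Direction could be taken for 103 of them, those in loci of 1 gene row whose strand RefSeq (GRCm38.p6) gives. With the locus cut into 4 equal stretches from the 5′ end, 30 lay in the first, 24 in the second, 26 in the next and 23 in the last, so that 52.4% (95% exact interval 42.4 to 62.4) were nearer the 5′ end than the 3′ end. Peaks of all 3 lists in such loci numbered 137, with 43, 49, 26 and 19 in the 4 stretches and 67.2% (58.6 to 74.9) nearer the 5′ end. The median distance from the 5′ end was 35.4 kb for the chosen peaks and 14.5 kb for those in all 3 lists. A share and a distance near those of the chosen peaks were also found outside them. List 1 peaks in no other list numbered 707 in such loci, with 173, 202, 202 and 130 in the 4 stretches. Of these 707, 375 (95% exact interval 49.3 to 56.8%) were nearer the 5′ end, at a median distance of 30.4 kb for all 707. The intervals for chosen peaks and for peaks in all 3 lists overlap, which does not show that their shares are alike. Differences between the shares were not tested. Median locus length, taken over loci with 1 named gene, was 116.6 kb for chosen peaks and 71.6 kb for peaks in all 3 lists. The part of length in the distances from the 5′ end was not tested.

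The chosen peaks lay on 19 chromosomes, with 10 on chromosome 17 and 31 each on chromosomes 2 and 11, and 0 on X, where list 1 had 74 peaks, list 2 had 26 and both shared 15. Over all chromosomes 319 of 2047 shared peaks were chosen, so the 15 on X are too few to show a lack there. Single peaks were the rule: 247 loci held 1, 27 held 2, 2 held 3 and 3 held 4, so that 72 of the 319 lay in 32 loci with 2 or more. Neighbours in the same locus formed 40 pairs with a median gap of 18753 bp, and 11 pairs were under 10 kb apart. The closest pair, 21 bp apart in Itgb6, and the next closest, 118 bp apart in Ablim1, each sat under 1 list 2 peak. A chosen peak did not mean a locus without IFE binding, since 130 of the 279 loci (46.6%) held an IFE peak elsewhere and 53 held a peak found in all 3 lists.

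A limit touches every statement on genes. Neighbouring and overlapping genes share a locus in the table, so that its 37298 gene rows fall into 28050 loci, and the 279 loci with a chosen peak hold 818 rows. The extreme is 1 locus of chromosome 8 (mm9 chr8:122434259-126869624) with 159 rows, 66 of them named genes, which held 4 chosen peaks; the gene that such a peak lies in cannot be given. Results below therefore also use the 210 loci, with 238 of the peaks, that hold exactly 1 named gene besides any predicted genes, clones or small RNAs. That restriction was added after the data were seen.

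Ablim1, an actin-binding LIM protein, held 4 chosen peaks in its locus of 282 kb (mm9 chr19:57107222-57389409), of 8 list 1, 3 list 2 and 1 IFE peaks there. They lay at 57110522-57111661, 57230096-57230392, 57230511-57231035 and 57271112-57271628, and the nearest to the 5′ end was 118 kb from it. Its control FPKM was 57.5 in replicate 1 and 35.6 in replicate 2. Odz2, now named Tenm2, which encodes the transmembrane adhesion protein teneurin 2, also held 4, in a locus of 1229 kb (mm9 chr11:35820157-37049466) with 11 list 1, 5 list 2 and 1 IFE peaks. All 4 lay between 263 and 444 kb from its lower end, and the single IFE peak fell among them, over a further list 2 peak at 429.9 kb. Control FPKM of Odz2 was 65.3 in replicate 1 and 11.1 in replicate 2.

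Filip1l (filamin A interacting protein 1-like; mm9 chr16:57302311-57606979) held 3 chosen peaks, at 152, 170 and 201 kb from its lower end, while its 2 IFE peaks lay at 30.3 and 89.5 kb. Atp8a2, a phospholipid flippase (mm9 chr14:60266367-60816016), held 3 chosen peaks and no IFE peak, with control FPKM of only 3.22 and 5.22. Loci with 2 peaks that were short for that number included Slc7a6 at 29.8 kb, Tgm5 at 39.7 kb and Scel at 100 kb. Tgm5 encodes a transglutaminase that crosslinks the cornified envelope and Scel the envelope precursor sciellin, and in neither locus did the IFE list have a peak. Control FPKM was 293 and 94.3 for Tgm5 and 92.6 and 79.2 for Scel, so that RNA of both was present in the HFSC libraries. Markers of IFE differentiation summed to 4391 and 12790 FPKM in the same controls, and which cells made the RNA of Tgm5 and Scel was not tested. Megf6, an EGF-domain protein, had 2 peaks and control FPKM of 86.3 and 73.0. The remaining 4 of the 12 loci with most chosen peaks were the 159-row locus, Gm17734, a locus of U6, Gm13937 and Gm13936, and 1 shared by Grap, Slc5a10 and Fam83g; in the last only Fam83g was above 1 FPKM, at 58.7 and 45.7 in the controls.

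**Figure D2:**
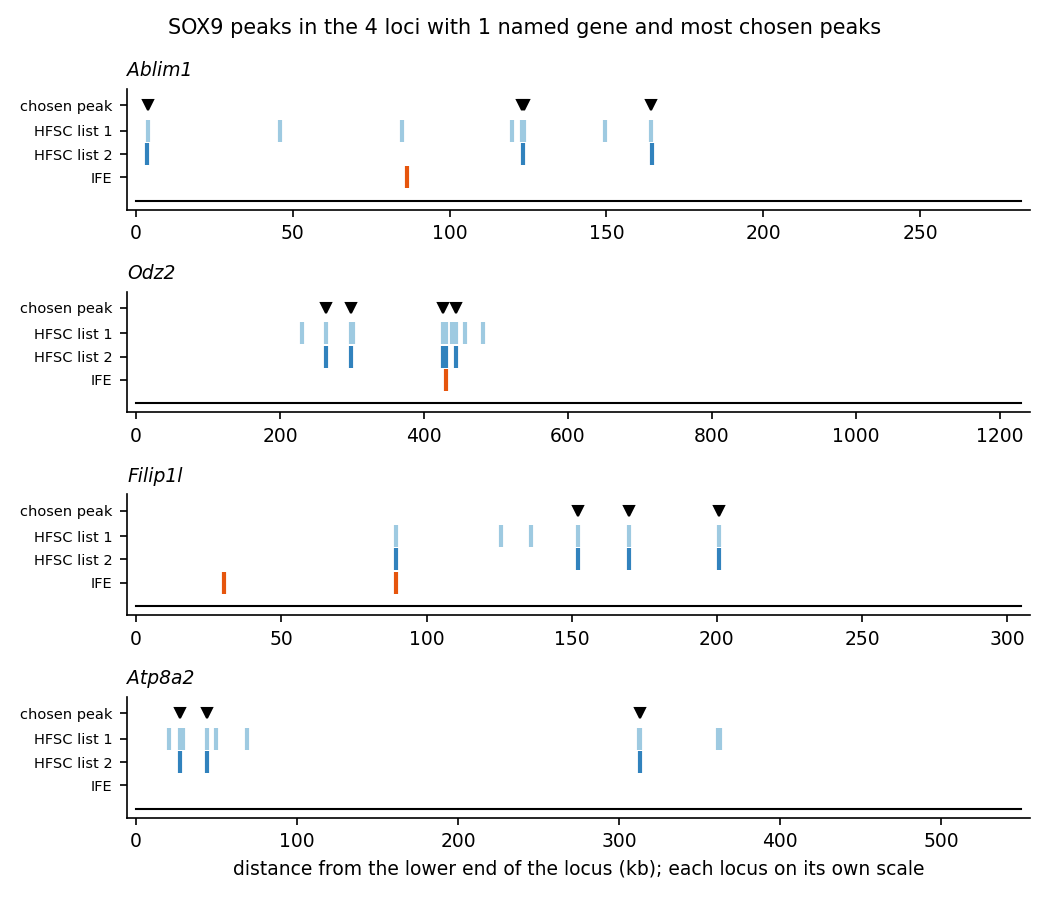
SOX9 peaks along the loci of Ablim1, Odz2, Filip1l and Atp8a2, by distance from the lower end of the locus in kb (each locus on its own scale); rows of ticks are the centres of peaks in HFSC list 1, HFSC list 2 and the IFE list, and triangles mark the chosen peaks. The Odz2 peaks gather between 263 and 444 kb of a 1229 kb locus, and Atp8a2 has no IFE peak.

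Among loci of 1 gene row, the peak farthest from both ends was in Kcnma1, the gene of a large-conductance potassium channel (mm9 chr14:24446529-24447176), 175 kb from the nearer edge and 1696 kb from any IFE peak. The peak in Tcf7l2, a nuclear factor of WNT signalling (mm9 chr19:55853957-55854860) was wholly covered by list 2 and lay 356 kb from any IFE peak.

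Loci with a chosen peak were long and mostly expressed. With 1 named gene, their median length was 116.6 kb against 18.3 kb over all 15676 loci of that kind, and their median control FPKM was 20.3 (24.5 in replicate 1 and 14.8 in replicate 2) against 1.83 in the 15466 others. A control FPKM of at least 1 was reached by 190 of the 210 (90.5%) against 53.2% of the others. The difference in level was there at matched length (the plot by length and level). Of loci over 200 kb, 2.38% (95% exact interval 1.14 to 4.32) held a chosen peak when the control FPKM was under 1, 8.66% (5.37 to 13.1) at 1 to 10 and 16.4% (10.9 to 23.3) at 10 or more. Of loci of 100 to 200 kb, these shares were 1.43%, 3.18% and 11.9%, and of loci under 20 kb 0 of 4621, 2 of 1280 and 9 of 2308. Per length of locus, there were 0.0650 chosen peaks per Mb under 1 FPKM, 0.217 at 1 to 10 and 0.747 at 10 or more. A locus must exceed 2 kb to hold such a peak at all, so part of the rise with length follows from the rule.

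**Figure D3:**
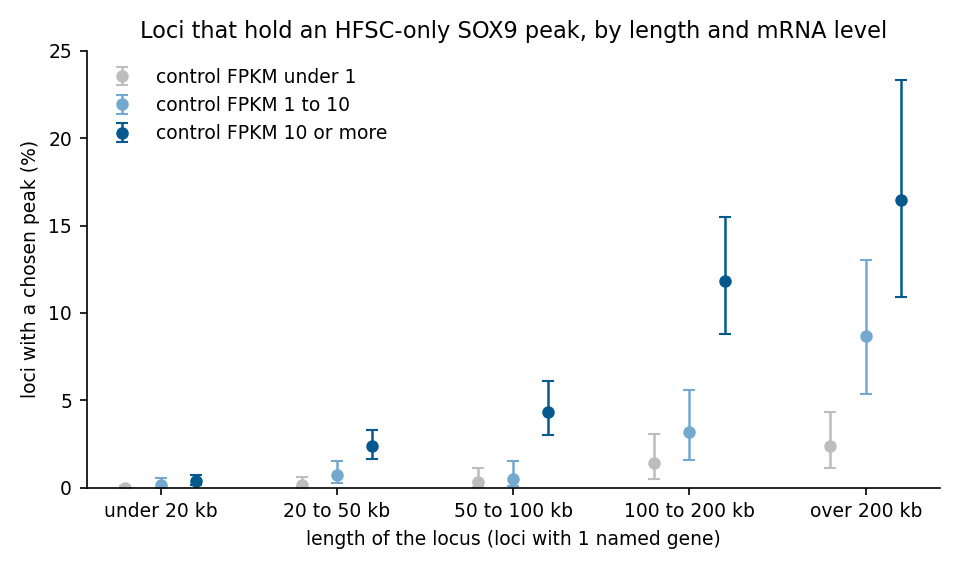
Share of loci with exactly 1 named gene that hold a chosen peak (percent, vertical axis) by locus length (horizontal axis) and by mean control FPKM (colours), with exact 95% binomial intervals. In loci over 200 kb the share goes from 2.38% under 1 FPKM to 16.4% at 10 FPKM or more.

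High levels were not particular to HFSC-only peaks. Loci with 1 named gene and a peak in all 3 lists inside had a median control FPKM of 21.8 (n = 265), and those with a list 1 peak in no other list 11.9 (n = 1052). In loci over 50 kb the medians were 18.6 for chosen peaks, 17.3 for peaks in all 3 lists and 3.59 for loci with no chosen peak. Over all 818 rows, those with any value above 0 had a median control FPKM of 6.73, against 2.66 over all rows above 0 in the table. The most abundant genes with a chosen peak in their locus were Fxyd3, a regulator of the sodium pump (1383 and 2557 FPKM in the controls), Anxa2, an annexin that binds membranes (1444 and 1679), Gm10071 (340 and 881, a ribosomal protein pseudogene whose reads can come from its parent), Sdc1, the heparan sulfate proteoglycan syndecan 1 (633 and 504), and Jup, the junction protein plakoglobin (571 and 453). Mllt4, the junction adaptor afadin, Cox4i1 and App, the amyloid precursor protein, stood at 691 and 323, 286 and 702, and 581 and 392. Of these 8, Cox4i1 lies in the 159-row locus, and Fxyd3, Gm10071 and Mllt4 also share theirs with other named genes.

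Genes of HFSC identity held chosen peaks in 7 of 35 cases: the secreted protein Dkk3, the vitamin D receptor gene Vdr, the transcription factor genes Nfib, Foxp1, Runx1 and Tcf7l2, and Lgr5, a receptor for R-spondins that marks cycling stem cells. Over all named genes of the table the count was 417 of 18904 (2.21%), and over all tested rows 429 of 14455 (2.97%). Peaks in these loci were not only HFSC-only ones. Of the 35 genes, 19 had an IFE peak in their locus and 5 a peak found in all 3 lists. The list's loci had a median length of 56.2 kb against 23.5 kb for all named genes, and the lists were drawn up with earlier results of these data known. Lgr5 had its peak at mm9 chr10:114987149-114987820, 37.0 kb from the nearer edge and 188 kb from any IFE peak, and FPKM of 110 and 38.0 in the libraries labelled cKO and 137 and 43.8 in the controls. Replicate 1 was the higher pair for Lgr5, and the genotypes overlapped. Vdr had its peak at mm9 chr15:97701343-97701891, with FPKM of 210 and 101 labelled cKO and 214 and 94.2 control, again set apart by replicate and not by genotype.

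Nfib, a factor known to act in bulge stem cells, held a peak at mm9 chr4:81987741-81988616 and stood at 119 and 48.6 FPKM labelled cKO and 155 and 52.2 control. Dkk3 held one at mm9 chr7:119281868-119282819, only 4.73 kb from an IFE peak, with 192 and 124 FPKM labelled cKO and 234 and 168 control. The Foxp1 peak (mm9 chr6:99477917-99479399) lies in a locus shared with Eif4e3, and that of Runx1 is at mm9 chr16:92631011-92632109. None of the 7 passed the test of genotype, with or without the replicate number as a block, in limma: the blocked log2 differences were -0.36 ± 0.12 (SE) for Dkk3, 0.03 ± 0.12 for Vdr, -0.24 ± 0.13 for Nfib, -0.26 ± 0.12 for Lgr5 and -0.37 ± 0.14 for Foxp1, with adjusted p between 0.383 and 0.947. Tcf7l2, with FPKM of 13.1 and 4.84 labelled cKO and 21.5 and 7.36 control, had an adjusted p of 0.317 in limma with the block.

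WNT signalling, which drives stem cells of the follicle from rest to growth, had chosen peaks in 6 of 51 genes. Receptors were Lgr5, its relative Lgr4 and the WNT co-receptor Lrp6; Tcf7l2 binds WNT target genes, Tle4 is a corepressor, and Dkk3 is related to WNT antagonists. No frizzled receptor or WNT ligand of the list held one, where 2.21% of all named genes did. Of the 51 genes, 20 had an IFE peak in their locus and 15 a peak found in all 3 lists. Lgr4 (peak at mm9 chr2:109792903-109793846, 375 kb from any IFE peak) stood at 34.1 and 26.0 FPKM labelled cKO and 53.1 and 32.3 control. Lrp6 (mm9 chr6:134444942-134445533) stood at 23.1 and 7.91 FPKM labelled cKO and 29.0 and 8.09 control. Tle4 (mm9 chr19:14586641-14587165) stood at 27.5 and 16.8 labelled cKO and 28.6 and 17.3 control. In each pair the library labelled cKO was the lower for all 3, but none passed (limma with the block, adjusted p = 0.366 for Lgr4, 0.745 for Lrp6 and 0.938 for Tle4). Of the 42 tested genes of the list, 0 were called higher and 2 lower with the block, where 0.104% and 0.18% of all rows were, and neither of those 2 held a chosen peak. This list too was drawn up with earlier results of these data known, so its counts cannot be read as enrichment.

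Matrix and secreted niche genes had chosen peaks in 7 of 51 cases, and 3 of them were among the called genes described below: Slit3, Timp2 and Sulf2. The other 4 were Sema3e, a secreted semaphorin, the basement membrane collagen genes Col4a1 and Col4a2, which share 1 locus and 1 peak, and the protease gene Adamts17. Sema3e (peak at mm9 chr5:14057267-14058093, 2613 kb from any IFE peak) stood at 33.7 and 12.3 FPKM labelled cKO and 57.1 and 25.5 control, a log2 difference of -0.87 ± 0.14 (SE; limma with the block, adjusted p = 0.0897). Of the 51 genes, 17 had an IFE peak in their locus and 6 a peak found in all 3 lists. Over the 40 tested genes of the list, 3 were called higher and 3 lower with the block, where 0.104% and 0.18% of all rows were. Only 3 of 14455 rows were called with the block after quantile normalization, so these list counts rest on the scaling. The list was also drawn up with earlier results of these data known, so its counts cannot be read as enrichment over all rows.

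Adhesion genes with a chosen peak numbered 5 of 38 in the table: the receptor phosphatases Ptprk and Ptprf, the integrins Itgb6 and Itgb8, and Dst, which encodes a hemidesmosome plakin. Of the 38 adhesion genes, 26 had an IFE peak in their locus and 12 a peak found in all 3 lists. The nearer of the 2 Ptprk peaks lay 2562 kb from any IFE peak, whereas both Itgb6 peaks were within 2 kb of one. Control FPKM was 28.7 and 12.9 for Ptprk, 309 and 114 for Dst and 222 and 116 for Ptprf. Epidermal transcription factors had 3 of 38 (Grhl2, Runx1 and Tead1) and chromatin regulators 3 of 28 (Arid5b, Ncoa3 and Kdm4c). Receptor tyrosine kinases and their regulators had 1 of 38, Lrig3, and cartilage targets of SOX9 1 of 23, Xylt1. TGF-beta, activin and BMP signalling had 0 of 43, Notch and Hedgehog signalling 0 of 26 and the SOX family 0 of 15. Over all named genes 417 of 18904 (2.21%) held one, so 0 or 1 in lists of this size does not show a lack of such peaks. Median locus lengths of these lists ran from 8.45 kb for the SOX family to 162 kb for the chromatin regulators, and the part of length in these counts was not tested.

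Libraries labelled cKO were compared with controls to ask whether genes with a chosen peak in their locus differ between the 2 labels. The comparison was fitted over all 14455 gene rows with a mean FPKM of at least 1, of which 429 lay in loci with a chosen peak. Fitted with genotype alone, limma called 0 of the 429 (smallest adjusted p = 1.00; 5 had p under 0.05 before adjustment), as it did over all rows (0% called; 93 rows, or 0.643%, at p under 0.05 before adjustment). With the replicate number as a block, limma called 6 of the 429 (1.40%), 1 higher and 5 lower, where 0.284% of all rows were called, 0.104% higher and 0.18% lower. Shares above that of all rows were not particular to chosen peaks. In loci with 1 named gene, 4 of 190 genes with a chosen peak were called (2.11%), against 0.297% of all 8405. With a list 1 peak in no other list it was 8 of 868 (0.922%), and with a peak in all 3 lists 2 of 253 (0.791%). These sets share genes. Before adjustment 80 of the 429 (18.6%) had p under 0.05, 55 lower and 25 higher, against 11.4% of all rows, 733 lower and 915 higher. By size alone, 6 of the 429 differed at least 2-fold the same way in both pairs, against 0.47% of all rows. The blocked fit has 1 residual degree of freedom and borrows its spread from all genes. All 6 calls, described next, were lost with the block after quantile normalization (0 of the 429, and 3 of all rows, called) and with no filter on low values (0 called, where limma's adjusted p was 0.742 for each of the 6).

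Slit3, a secreted guidance cue that binds ROBO receptors, had 33.6 FPKM labelled cKO and 14.0 control in replicate 1, and 13.1 and 4.02 in replicate 2. It was higher in both libraries labelled cKO within pairs, although the genotypes overlapped across pairs, and the log2 difference was 1.35 ± 0.16 (SE; limma with the block, adjusted p = 0.0347). With no block and 1 library left out, the difference was 0.70 (cKO replicate 1 left out), 0.56 (control replicate 2), 2.14 (control replicate 1) and 1.99 (cKO replicate 2). Its 2 chosen peaks were at mm9 chr11:35121254-35121950, 187 kb inside the locus, and at mm9 chr11:35500488-35501502, 20.5 kb from the other end, in a locus of 587 kb that also held a peak found in all 3 lists. The same locus holds the row of Mir218-2, listed at 0 in all 4 libraries of this kind, which do not measure mature miRNAs. Its products are printed for the reader who wants to relate the locus to them, with the seed (bases 2 to 8) in capitals, from RefSeq.
mmu-miR-218-5p: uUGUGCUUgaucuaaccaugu
mmu-miR-218-2-3p: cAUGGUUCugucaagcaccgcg
In all, 13 miRNA rows lay in 11 of the loci with a chosen peak.

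The 5 lower genes were separated by genotype in both pairs. Wfdc3, of the WAP family that includes protease inhibitors, stood at 21.7 and 31.7 FPKM labelled cKO and 75.8 and 93.4 control, so that the genotypes did not overlap, with a log2 difference of -1.64 ± 0.13 (SE; limma with the block, adjusted p = 0.0144). Its peak, mm9 chr2:164562832-164563780, lay in a locus of only 14.8 kb, 7.52 kb from an IFE peak outside it, and list 2 covered 46.5% of it. Timp2, an inhibitor of matrix metalloproteases, stood at 126 and 95.7 FPKM labelled cKO and 254 and 185 control, again without overlap (-0.98 ± 0.12, limma with the block, adjusted p = 0.0347). Its peak, mm9 chr11:118188681-118189498, was 90.4 kb from any IFE peak.

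Thsd1, a transmembrane protein with a thrombospondin domain, stood at 50.3 and 34.2 FPKM labelled cKO and 112 and 78.7 control, without overlap (-1.16 ± 0.12, limma with the block, adjusted p = 0.0273). Its peak was at mm9 chr8:23358287-23359078, 102 kb from any IFE peak. Sulf2, which removes sulfate groups from heparan sulfate, stood at 7.09 and 8.28 FPKM labelled cKO and 24.4 and 23.1 control (-1.51 ± 0.16, limma with the block, adjusted p = 0.0273). The locus of Sulf2 is shared with Ncoa3, a nuclear receptor coactivator gene, which stood at 23.3 and 8.46 FPKM labelled cKO and 22.9 and 6.42 control, so that the peak at mm9 chr2:165967969-165968834 belongs to a locus in which only 1 of the 2 genes was called. Gm16314, now named Rtl10, stood at 9.47 and 7.79 FPKM labelled cKO and 40.0 and 21.4 control (-1.66 ± 0.19, limma with the block, adjusted p = 0.0297), in a locus listed with Gnb1l that holds the peak mm9 chr16:18547720-18548631. Cxcl10, an interferon-induced chemokine, was at least 2-fold higher labelled cKO in both pairs, with 1.89 against 0.403 and 3.89 against 0.631 FPKM, but did not pass (limma with the block, adjusted p = 0.183), and its locus also holds Art3 and Cxcl11. The 4 called genes with 1 name to their locus (2.11% of 190, against 0.297% of all 8405 such genes) were Slit3, Timp2, Thsd1 and Wfdc3.

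**Figure D4:**
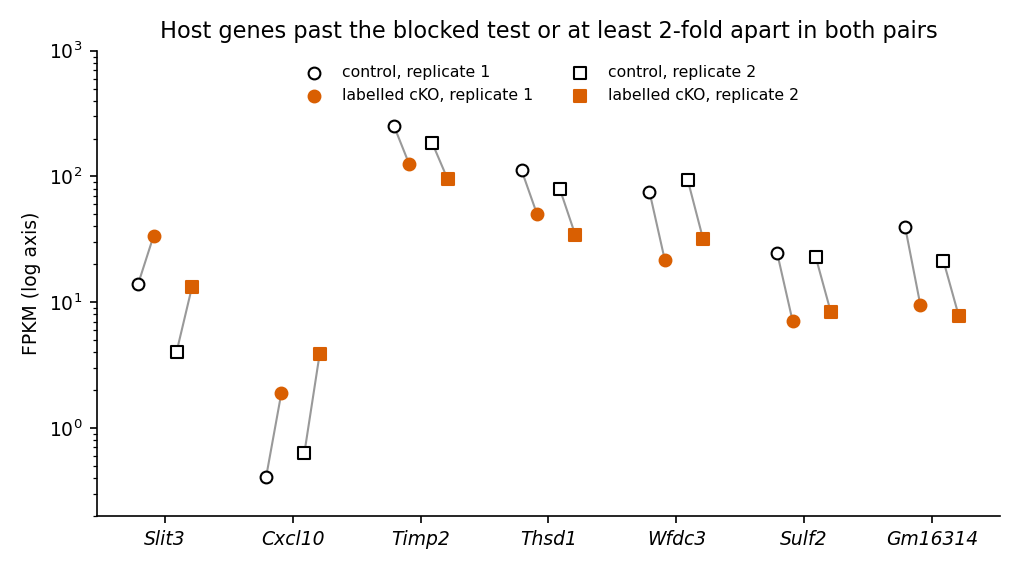
FPKM (log axis) of the 7 genes in loci with a chosen peak that passed the blocked test or differed at least 2-fold in both pairs, with open symbols for controls, filled symbols for libraries labelled cKO, circles for replicate 1 and squares for replicate 2, joined within a replicate. Slit3 and Cxcl10 are higher in both libraries labelled cKO, and the other 5 are lower.

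Over all tested genes with a chosen peak, the median difference lay below 0 (libraries labelled cKO minus controls). Over the 429 rows the median log2 difference was -0.05, against -0.01 over all 14455. Over the 190 tested genes with 1 name to their locus it was -0.15, against -0.04 over all 8405 such genes, and 101 of the 190 (53.2%) were lower in both pairs against 34.3%. The share lower in both pairs was 42.1% of 868 genes with a list 1 peak in no other list and 39.9% of 253 with a peak in all 3 lists. In loci over 50 kb it was 58.4% of 137 genes with a chosen peak and 41.0% of all 2403. The median of the 190 genes was -0.20 in the replicate 1 pair and -0.12 in the replicate 2 pair. Genes in long loci had medians below 0 with or without a chosen peak: over 50 kb the median was -0.19 for the 137 genes with a chosen peak and -0.07 over all 2403 (the plot by locus length). In loci over 200 kb, 60% of 45 genes with a chosen peak were lower in both pairs against 36.2% of 337 others, and in loci of 20 to 50 kb 38.1% of 42 against 34.3% of 2363. These are descriptions of 2 pairs, with no test, and genes are not replicates.

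**Figure D5:**
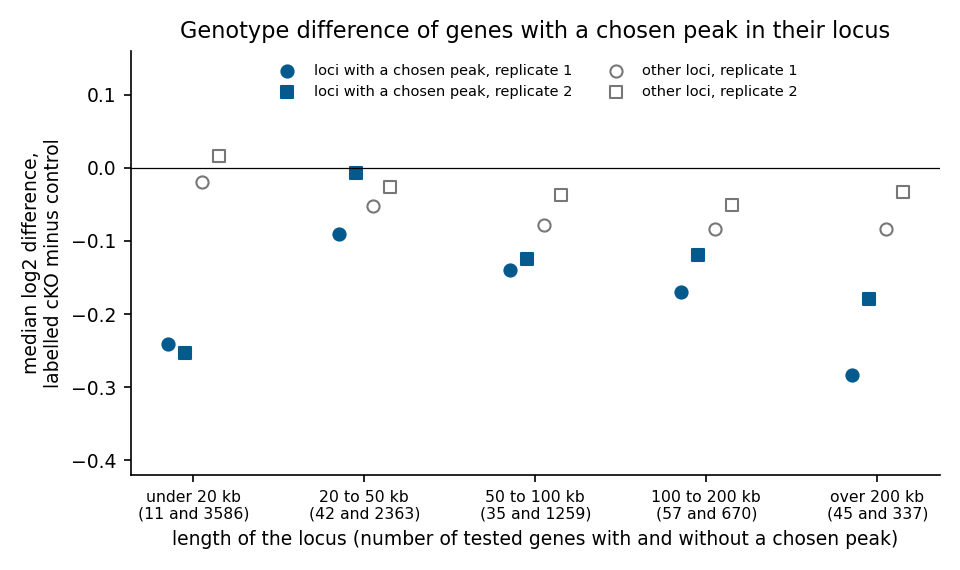
Median log2 difference between the library labelled cKO and its control (vertical axis) by locus length (horizontal axis), for tested genes with 1 name to their locus that hold a chosen peak (filled) or do not (open), in the replicate 1 pair (circles) and the replicate 2 pair (squares). Medians of genes with a chosen peak lie below 0 in all 5 classes and both pairs, from -0.28 to -0.01, and below those of the others except in the replicate 2 pair at 20 to 50 kb.

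Genes with a peak in all 3 lists had a median of -0.05 (n = 253) and those with a list 1 peak in no other list -0.08 (n = 868); a gene can be in several of these sets. Within the loci with a chosen peak and 1 named gene, the median was -0.19 where the locus held no IFE peak (n = 105) and -0.12 where it did (n = 85). The median of -0.15 turned to 0.15 with control replicate 1 left out and to 0.11 with cKO replicate 2 left out, and was -0.45 with cKO replicate 1 and -0.46 with control replicate 2 left out, in fits that mix the difference between replicates into that of genotype. Markers of IFE differentiation also summed lower in the library labelled cKO of each pair. The 7 fibroblast markers summed higher there, at 34.8 FPKM against 28.5 in replicate 1 and 43.0 against 24.6 in replicate 2. Those sums were mostly Col1a2 (21.9 against 14.8 in replicate 1) and Vim (12.3 against 11.7). Col1a1, Dcn, Col3a1, Pdgfra and Lum were lower labelled cKO in replicate 1, and all 7 were higher in replicate 2. Of the 7, 4 were under 1 FPKM in every library. The 6 endothelial markers also summed higher labelled cKO, at 0.471 against 0.167 and 0.389 against 0.137, with all 6 under 1 FPKM in every library. The part of these markers in the medians and in the called genes, Slit3 included, was not tested.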

How the data were processed

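Peak positions were deposited as 1 list per ChIP library, with a chromosome, start and end on mm9; their caller: not given in the sources used here. Expression was deposited by the authors as FPKM, per the file headers, in 1 table with gene symbols, Ensembl identifiers and locus coordinates. Cufflinks 1.0.3, TopHat2, TopHat and Bowtie are named, with no roles, per the submitters' processing notes. FPKM values carry no read counts, so the depth is unknown and no counting interval could be given for expression; FPKM also depends on the length model and on the library's total.

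Overlaps were computed in Python 3.11.15 with pandas 2.3.3, and printed positions are 1-based. Shares carry exact (Clopper-Pearson) 95% intervals from scipy 1.17.1, which cover counting error only. In R 4.3.3, limma 3.58.1 was fitted to log2(FPKM + 1) (mean trend, two-sided, Benjamini-Hochberg adjustment over all 14455 rows with a mean FPKM of at least 1, threshold 0.05), first with genotype alone and then with the replicate number as a block. Log2 differences are on this scale and so come out too small for low genes. Same-numbered libraries share sex, age and treatment days per the labels, and their deviations from the genotype means correlated at 0.812 across genes, so the numbers pair the samples. Tested on simulated data for this comparison over 14455 genes, the fit without the block called 0 of 200 changed genes, and the blocked fit called 111 of 112 changed by 1 on the log2 scale and 88 of 88 changed by 2, with 15 false calls. The changes were planted only in genes of higher level, at the same size in both pairs. The noise was normal, with the spread that the blocked fit itself estimated. The simulation thus favours the blocked fit and cannot show how often it finds real changes.

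The peaks, the 12 gene lists and the 7 marker lists were chosen with earlier results of these data known; 1 of the lists is not reported here. Genes were named by rule: the 12 loci with most chosen peaks, up to 5 genes of each list with a peak, every gene with a peak that passed either fit or differed at least 2-fold the same way in both pairs, the 8 most abundant, and Sox9; of peaks, the 3 widest and the 3 farthest from an edge. The 3 farthest peaks, 1951, 1834 and 1280 kb from the nearest edge, all lay in the 159-row locus and are not described further. Genes named beyond the first 5 of a list, and Kcnma1, fell outside the rule. Current symbols were matched by identifier for 702 of 818 rows, and strands and printed sequences came from RefSeq tables (GRCm38.p6). A planned motif search under the peaks was not run, since no mm9 genome was used here.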

Additional observations from a re-analysis of the deposited data

Results flagged for a closer look

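The genotype difference (log2, labelled cKO minus control) pointed opposite ways in the male (replicate 1) and the female (replicate 2) pair for 11 of 52 genes examined. Opposite pairs were common over the whole table and not particular to these genes. Over all 14455 tested rows, only 29.6% were lower and 28.4% higher in both pairs. Over the 429 rows in loci with a chosen peak, 38.5% were lower and 21.4% higher in both. The difference between pairs was not tested for any of the 11. In 7 the male pair was below 0 and the female pair above it by over 0.1: Tgm5 gave -0.87 and 0.39, a gap of 1.26. Sox9, which holds no chosen peak, gave -0.21 and 0.78, a gap of 0.99. Runx1 gave -0.41 and 0.43, a gap of 0.84, and Col4a1 -0.58 and 0.11, a gap of 0.69. Filip1l gave -0.36 and 0.27, a gap of 0.63. Odz2 gave -0.21 and 0.31, a gap of 0.51, and Grhl2 -0.22 and 0.27, a gap of 0.49. Mitf went the other way, with 0.16 and -0.13 (female minus male -0.29). In the remaining 3 a value lay within 0.1 of 0: Vdr gave -0.029 and 0.097 (female minus male 0.13), Anxa2 0.08 and -0.06 (-0.14) and Kdm4c 0.044 and -0.017 (-0.061). Sex, age and treatment days differ together between the pairs and cannot be told apart.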

How the results depend on the processing

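The number of chosen peaks (319) stayed within 1.5 times under each planned change of overlap, distance or loci, and ranged from 399 to 2487 when 1 HFSC list was left out, with 351 to 1492 loci. The median control FPKM of 6.73 became 19.5 in loci with a mean FPKM of at least 1 and 20.6 in those with 1 named gene, and lay between 5.33 and 6.79 with 1 control left out. With the replicate block, the calls among genes with a chosen peak were 6, and 6 at a pseudocount of 0.1, 7 at a pseudocount of 5, which added Sema3e, 6 at a mean FPKM of at least 5 and 4 in loci with 1 named gene. They were 0 with no filter on low values and 0 after quantile normalization, where 3 of all genes were called. With no block they were 0 in every fit, 1 library left out included, where the adjusted p was lowest at 0.0539. The block changed no median. The median log2 difference of -0.05 became -0.15 in loci with 1 named gene, also with the block, and lay between -0.22 and 0.056 with 1 library left out. The cause of these moves was not tested, apart from what leaving out a library, or the replicate difference it lets in, does by construction.

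Fits were repeated for 29 genes, and with 1 library left out 15 of them turned direction: Odz2 lay between -1.18 and 1.28, Filip1l between -0.60 and 0.51, Atp8a2 between -0.20 and 0.70, Slc7a6 between -0.46 and 0.27, Tgm5 between -1.06 and 0.57, Vdr between -0.56 and 0.62, Nfib between -1.02 and 0.53, Lgr5 between -1.07 and 0.55, Foxp1 between -1.10 and 0.37, Tle4 between -0.39 and 0.30, Lrp6 between -1.03 and 0.69, Col4a2 between -1.04 and 0.068, Runx1 between -0.89 and 0.92, Tcf7l2 between -1.31 and 0.12, and Sox9 between -0.13 and 0.69. With all 4 libraries 2 of the 29 turned, Vdr to -0.070 after quantile normalization and Runx1 to -0.034 at a pseudocount of 5, with and without the block. Other genes named in the text were not refitted. The 6 called genes kept their direction in every fit.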

Other observations

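Mitf, the transcription factor gene known for melanocytes, held a chosen peak in its locus with 44.3 and 13.7 FPKM labelled cKO and 39.5 and 15.1 control. The other 6 melanocyte markers did not follow it: Tyr was at most 0.0210 FPKM, Sox10 at most 0.198 and Dct at most 1.34 in any library. The locus listed for Fancc, a DNA repair gene, held 2 chosen peaks and also the rows of Mir23b, between 4.62 and 38.1 FPKM over the 4 libraries, and of Mir27b, up to 25.5; such libraries capture small RNAs poorly. These genes were singled out after their values were seen.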
